A study of Homo sapiens with 12 samples.

Results

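Neurotrophins are secreted growth factors of nerve cells that act through a family of receptor tyrosine kinases, the Trk receptors, and through the p75 neurotrophin receptor, a member of the tumour necrosis factor receptor family. Brain-derived neurotrophic factor (BDNF) and neurotrophin 4 (NTF4) bind TrkB, the product of NTRK2, and neurotrophin 3 (NTF3) binds mainly TrkC, the product of NTRK3. NGFR encodes p75, which binds every neurotrophin and, together with sortilin (SORT1), also their uncleaved precursors. In the brain, astrocytes can supply BDNF to neighbouring cells, and TrkB on breast cancer cells has been studied as a receptor for it.

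The genes described here are NTRK2, NTRK3, NGFR, BDNF, NTF3 and SORT1, read from probe sets that carry exactly 1 gene symbol. Of these 6 genes, 4 had such a probe set among the 17958 genes measured, with 1 probe set each: 8156134 for NTRK2, 7991186 for NTRK3, 8008201 for NGFR and 7947230 for BDNF. NTF3 and SORT1 were not analysed here. A probe set gives 1 value for the whole gene. The probe table pairs the one for BDNF with 17 RefSeq transcripts and the one for NTRK2 with 5, so the alternative BDNF promoters and the kinase-bearing and truncated forms of TrkB were not separated.

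RNA came from 231BR cells, a brain-seeking line made from the human breast cancer line MDA-MB-231, which carried EGFP so that they could be sorted away from astrocytes. The 12 single-colour arrays form 4 groups of 3. Cells grown without astrocytes received vehicle (vehicle alone) or 10 nM estradiol (estradiol alone), and cells grown for 24 h with mouse astrocytes received the same agents (vehicle with astrocytes, estradiol with astrocytes). All groups are 1 tumour line, and the labels do not say whether the 3 arrays of a group came from separate cultures, so the spread between them may be technical. The values are deposited log2 signals. The arrays were designed for human transcripts and the sorted cells are human, so BDNF made by the mouse astrocytes was not what these probe sets were meant to measure.

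The arrays differed in the range of their signal, and this touches every astrocyte comparison below. The log2 values of an array had an SD of 2.04 to 2.22 in the 6 arrays without astrocytes. In replicates 1, 2 and 3 with astrocytes it was 2.04, 1.82 and 1.95 under vehicle, and 2.10, 1.62 and 1.96 under estradiol. The array SD thus went partly with the presence of astrocytes. Later fits that take the array SD as a covariate cannot fully tell the 2 apart. Across genes, replicate 2 of estradiol with astrocytes had r = 0.558 to 0.674 with the 6 arrays that had no astrocytes, which among themselves had r = 0.967 to 0.997. The other arrays with astrocytes had r from 0.832 to 0.982 with those 6 arrays. Of 11 markers of the 231BR line 10 were measured, and their summed log2 signal was 91.6 to 94.6 without astrocytes, 86.8 to 93.2 in vehicle with astrocytes and 76.9 to 94.0 in estradiol with astrocytes. In the mean of both astrocyte comparisons 3 of them fell and 0 rose (limma), with a median difference of -0.49. Of 14 astrocyte markers 12 were measured, with summed signal of 58.8 to 61.6 without and 60.4 to 63.3 with astrocytes, and 5 rose and 2 fell in that mean. They moved both ways: under estradiol the difference was 1.04 for GFAP (adjusted p = 0.0578, limma) and -0.97 for SLC1A3 (adjusted p = 0.0494, limma). Among markers of the other cell types listed, 6 of 11 measured microglia and macrophage markers, 5 of 11 neuron markers, 5 of 9 oligodendrocyte markers, 2 of 8 luminal breast markers, 1 of 6 fibroblast markers and 0 of 8 endothelial markers rose in that mean and 1 neuron marker fell, where 24.5% of all genes rose and 23% fell. Summed microglia and macrophage markers were 40.7 to 44.6 without and 44.4 to 56.4 with astrocytes. The part of these differences in the results was not tested.

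None of the 4 measured genes passed the test in any of the 6 comparisons made (limma, adjusted p threshold 0.05), and none had an unadjusted p under 0.05 in any of them. NTF4, the other TrkB ligand and not one of the 6 genes described, rose in the mean of both astrocyte comparisons (adjusted p = 0.00430, limma). In that mean 24.5% of all genes rose. NTF4 was not called under vehicle (adjusted p = 0.0895, limma), and its call under estradiol was lost in 7 of the 12 fits that left out 1 array. Downstream of the receptors, 18 of 36 Trk adaptor and signalling genes fell with astrocytes and 5 rose in the deposited values, where 23% of all genes fell and 24.5% rose. With the array SD as a covariate the balance turned to 2 lower and 6 higher, where 5.82% of all genes were lower and 8.57% higher. FOS, an immediate early gene that Trk signalling can induce, fell in both fits. It was named for the smallest p among the 22 measured genes that Trk activity can induce. Of those, 5 fell and 4 rose in the deposited values, near the shares of all genes.

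**Figure D1:**
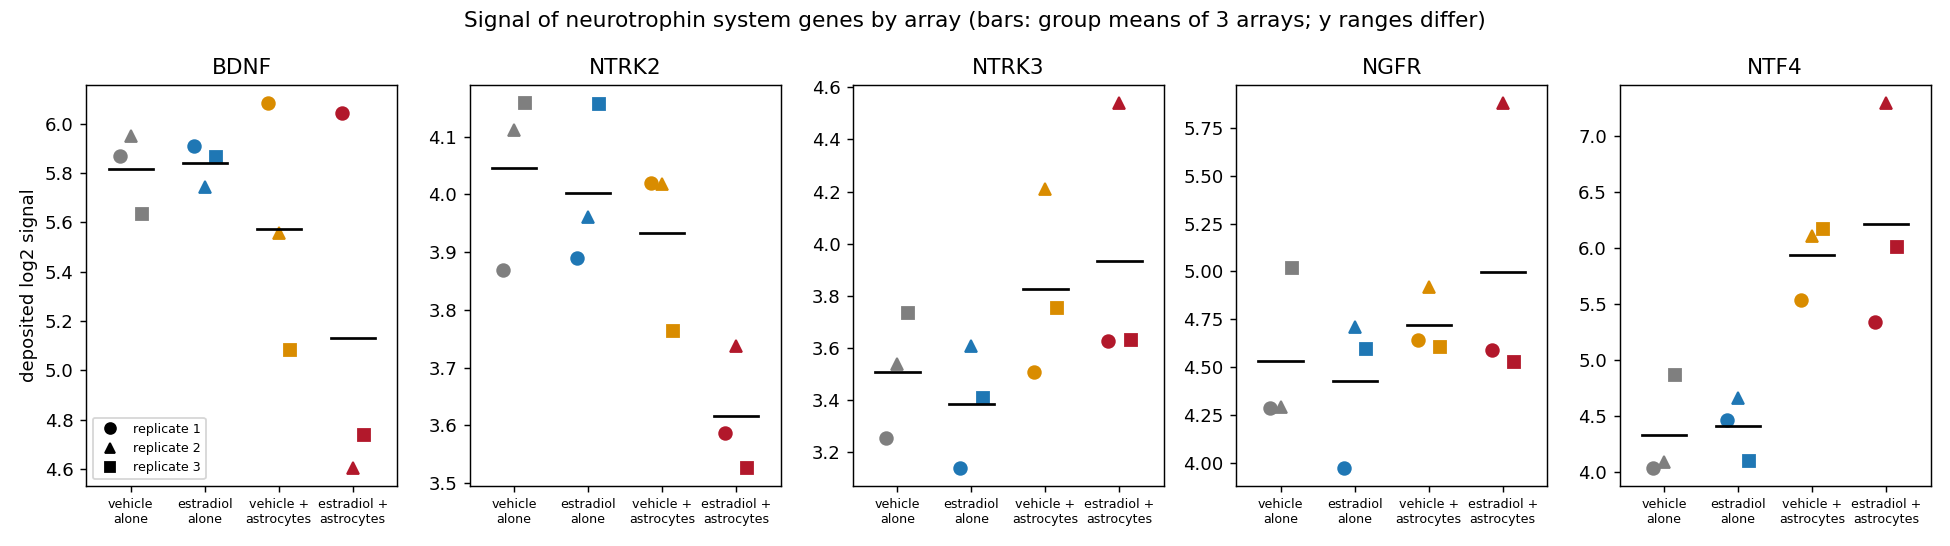
Deposited log2 signal (y axis, its own range in each panel) of BDNF, NTRK2, NTRK3, NGFR and NTF4 on each of the 12 arrays, by group (x axis). Symbols mark replicate numbers and horizontal bars the group means of 3 arrays. NTF4 is the gene whose 6 arrays with astrocytes all lie above its 6 arrays without, and replicate 2 of estradiol with astrocytes is the highest array for NTRK3, NGFR and NTF4 and the lowest for BDNF. Of all genes, 23.4% under vehicle and 27% under estradiol had their arrays with astrocytes above those without.

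The ligand BDNF supports survival and growth through TrkB. Its log2 signal was 5.87, 5.95 and 5.63 in the 3 arrays of vehicle alone, and 5.91, 5.74 and 5.87 in estradiol alone. With astrocytes it was 6.08, 5.56 and 5.08 under vehicle, and 6.05, 4.61 and 4.74 under estradiol. The arrays without astrocytes lay close together and overlapped, whereas replicate 1 of both astrocyte groups was above them and the other arrays with astrocytes were below them.

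In order of their means, BDNF signal was 5.84 ± 0.09 (SD, n = 3) in estradiol alone, 5.82 ± 0.16 in vehicle alone, 5.57 ± 0.50 in vehicle with astrocytes and 5.13 ± 0.80 in estradiol with astrocytes. No group differed from its neighbour in this order beyond the spread. Astrocytes against none under estradiol gave a log2 difference of -0.71 (SE 0.36, 95% interval -1.495 to 0.07, adjusted p = 0.141, limma). Under vehicle it was -0.24 (interval -1.03 to 0.54, adjusted p = 0.629, limma). Without replicate 1 of estradiol with astrocytes, the difference under estradiol was -1.17 and passed (adjusted p = 0.00888, limma). In that fit 9222 of the 17958 genes passed in this comparison, against 2366 with all arrays. Without replicate 2 of that group the BDNF difference was -0.45. The call on BDNF therefore turned on replicate 1, the array with the highest BDNF of its group. Passing was common among all genes without that array, so the call was not particular to BDNF.

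Of the 14 promoter windows found for 5 of the 6 genes, 3 held a match to GGTCA, the core of each arm of an estrogen response element: 1 of 5 for BDNF, 1 of 2 for NTF3 and 1 of 2 for SORT1. The BDNF window is shown because BDNF was the one of these that was measured. The window is the 250 bases before the outermost BDNF start in RefSeq, chr11:27722031-27722280 of GRCh38.p14, minus strand, printed 5′ to 3′ with the match in capitals.

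BDNF: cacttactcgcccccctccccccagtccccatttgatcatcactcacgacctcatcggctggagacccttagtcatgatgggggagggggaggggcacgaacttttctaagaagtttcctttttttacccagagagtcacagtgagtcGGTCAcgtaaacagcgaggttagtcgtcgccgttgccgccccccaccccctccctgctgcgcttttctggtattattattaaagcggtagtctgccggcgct

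The match GGTCA lies 98 to 102 bases before the start. On either strand, GGTCA was present in 32.6% of 35116 windows of the same length, so a match is common. The full estrogen response element, GGTCANNNTGACC, was present in 0.0399% of windows and in none of the 14. Nor did any of these windows hold the cyclic AMP response element TGACGTCA (1.65% of windows) or the AP-1 site TGANTCA (6.57%). The letters TGACG, with which the cyclic AMP response element begins, were present in 21.2% of windows, with 1 match in an inner BDNF window and 2 in an NTRK2 window. These matches describe letters only, and no window was found for NGFR.

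Estradiol did not detectably change BDNF. Against vehicle, the log2 difference was 0.02 without astrocytes (95% interval -0.76 to 0.81) and -0.44 with astrocytes (interval -1.23 to 0.34), each with an adjusted p of 1.00 (limma). These intervals do not show that estradiol had no effect, since they span a change of more than 0.7 in either direction without astrocytes. Each interval rests on 1 spread estimated from all 4 groups, so its width is not the spread of the compared arrays alone. The SD of BDNF was 0.16 in vehicle alone and 0.09 in estradiol alone, against 0.50 in vehicle with astrocytes and 0.80 in estradiol with astrocytes.

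NTRK2 encodes TrkB. Its log2 signal was 3.87, 4.11 and 4.16 in vehicle alone, and 3.89, 3.96 and 4.16 in estradiol alone. With astrocytes it was 4.02, 4.02 and 3.76 under vehicle, and 3.59, 3.74 and 3.53 under estradiol. The 3 arrays of estradiol with astrocytes were the lowest of the 12 and overlapped with no other group, while the other 3 groups overlapped with one another.

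NTRK2 averaged 4.05 ± 0.16 (SD, n = 3) in vehicle alone, 4.003 ± 0.14 in estradiol alone, 3.93 ± 0.15 in vehicle with astrocytes and 3.62 ± 0.11 in estradiol with astrocytes. Astrocytes against none under estradiol differed by -0.39 on the log2 scale (SE 0.18, 95% interval -0.78 to 0.01, adjusted p = 0.118, limma). Estradiol against vehicle in the presence of astrocytes differed by -0.32 (interval -0.71 to 0.08, adjusted p = 1.00, limma). The same agent without astrocytes differed by -0.04 (interval -0.44 to 0.35). The interaction, which is the difference between these responses to estradiol, was -0.27 (interval -0.83 to 0.28, adjusted p = 1.00, limma), so an estradiol response of NTRK2 that depends on astrocytes was not shown.

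NTRK2 was the gene whose mean astrocyte difference kept its negative sign in the refits plotted below. The mean over both agents was -0.25 in the deposited values (adjusted p = 0.114, limma), -0.35 with the array SD as a covariate (adjusted p = 0.106) and -0.56 after quantile normalization, which passed (adjusted p = 0.0101, limma). After that normalization 5802 of the 17958 genes passed in this mean. NTRK2 signal was low on these arrays, whose median log2 value was 4.35 to 4.77.

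NTRK3 encodes TrkC, the receptor of neurotrophin 3. Its log2 signal was 3.25, 3.54 and 3.74 in vehicle alone, and 3.14, 3.61 and 3.41 in estradiol alone. With astrocytes it was 3.51, 4.21 and 3.75 under vehicle, and 3.63, 4.54 and 3.63 under estradiol. Replicate 2 was the high array in both astrocyte groups, and the estradiol groups with and without astrocytes did not overlap.

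NTRK3 averaged 3.93 ± 0.53 (SD, n = 3) in estradiol with astrocytes, 3.82 ± 0.36 in vehicle with astrocytes, 3.51 ± 0.24 in vehicle alone and 3.39 ± 0.24 in estradiol alone. The astrocyte difference was 0.55 under estradiol (95% interval -0.08 to 1.18, adjusted p = 0.153, limma) and 0.32 under vehicle (interval -0.31 to 0.94, adjusted p = 0.438, limma). Averaged over both agents it was 0.43 (adjusted p = 0.0933, limma). With the array SD as a covariate that mean turned to -0.13 (adjusted p = 0.581), and with the replicate number as a block it passed (adjusted p = 0.0342, limma). With that block 10278 of the 17958 genes passed in the mean. The block ties the numbers across all 4 groups, but not all same-numbered arrays deviated together from their group means. For replicate 2 of vehicle alone and of estradiol alone, r was -0.493.

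NGFR encodes p75, which can promote death or survival depending on its partners. Its log2 signal was 4.29, 4.29 and 5.02 in vehicle alone, and 3.97, 4.71 and 4.59 in estradiol alone. With astrocytes it was 4.64, 4.92 and 4.60 under vehicle, and 4.59, 5.88 and 4.53 under estradiol. All 4 groups overlapped, and 1 array, replicate 2 of estradiol with astrocytes, stood above the rest at 5.88.

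NGFR averaged 4.999 ± 0.76 (SD, n = 3) in estradiol with astrocytes, 4.72 ± 0.17 in vehicle with astrocytes, 4.53 ± 0.42 in vehicle alone and 4.43 ± 0.40 in estradiol alone. The astrocyte difference under estradiol was 0.57 (95% interval -0.22 to 1.37, adjusted p = 0.220, limma) and fell to 0.13 without replicate 2 of that group. Under vehicle it was 0.19 (interval -0.61 to 0.98, adjusted p = 0.715, limma). The mean over both agents, 0.38, turned to -0.33 with the array SD as a covariate.

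The responses of NTRK3 and NGFR to estradiol were small against their errors. Without astrocytes the log2 difference was -0.12 for NTRK3 (95% interval -0.75 to 0.51) and -0.11 for NGFR (interval -0.90 to 0.69). With astrocytes it was 0.11 for NTRK3 (interval -0.52 to 0.74) and 0.28 for NGFR (interval -0.52 to 1.07). No interaction passed for any of the 4 genes (adjusted p = 1.00 for each, limma).

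The counts over all genes give the scale for these results. In both estradiol comparisons 0% of genes passed (limma, with 1 gene at an unadjusted p under 0.05 without astrocytes and 142 with them), and in the interaction 0% passed (31 genes at an unadjusted p under 0.05). With no effect at all, a calibrated test would put a share of 0.05 of the 17958 genes under that p, and these counts are far below it. The test was thus too strict in these comparisons, and 0 calls do not show that estradiol had no effect. Astrocytes against none gave calls for 0.0557% of genes under vehicle and for 13.2% under estradiol, and the mean of both gave calls for 47.5%. Against these shares, 0 of 4 neurotrophin system genes were called in each. Groups did not overlap for 2 of the 4 genes in astrocytes against none under estradiol, where 50.9% of all genes did not overlap. Under vehicle the count was 0 of 4, against 41.8%. In estradiol against vehicle with astrocytes it was 1 of 4, NTRK2, against 2.18% of all genes.

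**Figure D2:**
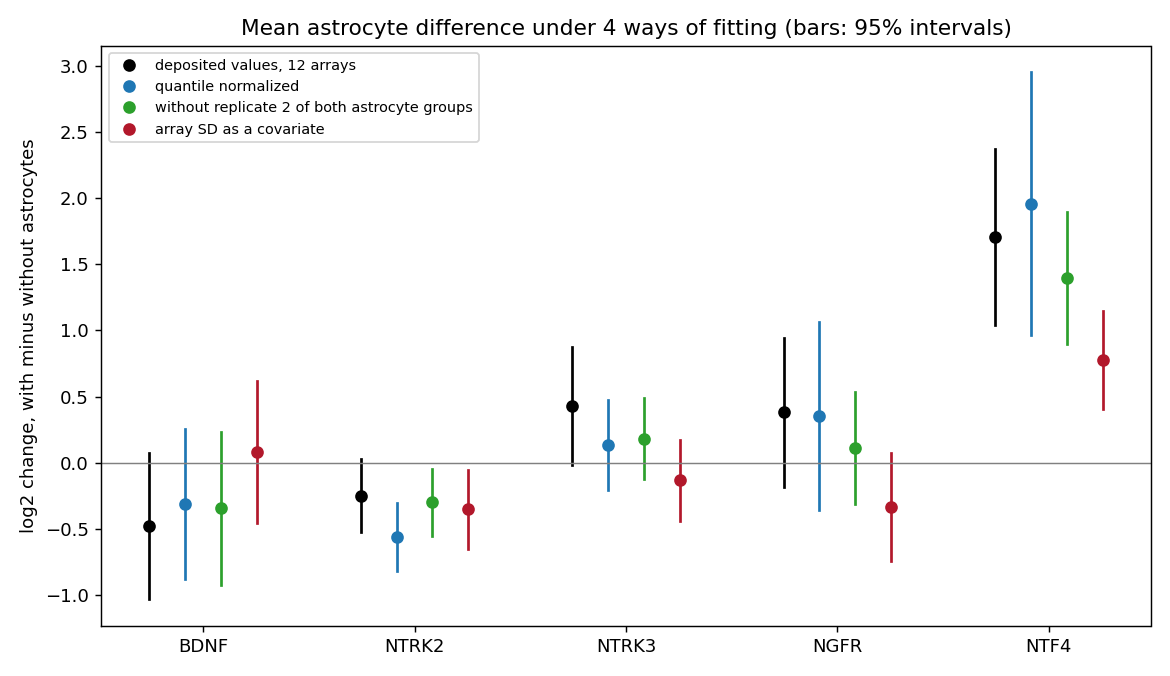
Log2 difference with minus without astrocytes, averaged over vehicle and estradiol (y axis), for BDNF, NTRK2, NTRK3, NGFR and NTF4 (x axis). Points are limma estimates and bars 95% intervals from the deposited values, after quantile normalization, without replicate 2 of both astrocyte groups, and with the array SD as a covariate. The NTF4 estimates stay above 0 and the NTRK2 estimates below 0 in all 4, while the signs of BDNF, NTRK3 and NGFR turn with the array SD as a covariate.

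NTF4 is a ligand that shares TrkB with BDNF. Its log2 signal was 4.04, 4.09 and 4.86 in vehicle alone, and 4.46, 4.66 and 4.10 in estradiol alone. With astrocytes it was 5.54, 6.11 and 6.17 under vehicle, and 5.34, 7.30 and 6.01 under estradiol. All 6 arrays with astrocytes were above all 6 without. Of all genes, 23.4% under vehicle and 27% under estradiol had their arrays with astrocytes above those without. NTF4 signal ran against the array SD (Pearson's r = -0.945 over the 12 arrays).

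Averaged over both agents, NTF4 rose by 1.71 on the log2 scale with astrocytes (SE 0.30, 95% interval 1.04 to 2.37, adjusted p = 0.00430, limma), which is 3.27-fold. Under estradiol it rose by 1.81 (adjusted p = 0.0360), and under vehicle the difference was 1.61 (adjusted p = 0.0895, limma), which passed in 3 of the 12 fits that left out 1 array (adjusted p down to 0.0122) and with the array SD as a covariate (0.80, adjusted p = 0.0354). The call under estradiol was lost in 7 of the 12 fits that left out 1 array (adjusted p up to 0.155), among them the one without replicate 2 of estradiol with astrocytes (1.27), and with the array SD as a covariate (0.75, adjusted p = 0.0793). With that covariate the rise in the mean was 0.77 (adjusted p = 0.0135, limma). Estradiol did not detectably change NTF4, at 0.08 without astrocytes (interval -0.86 to 1.02) and 0.28 with them (interval -0.66 to 1.22).

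**Figure D3:**
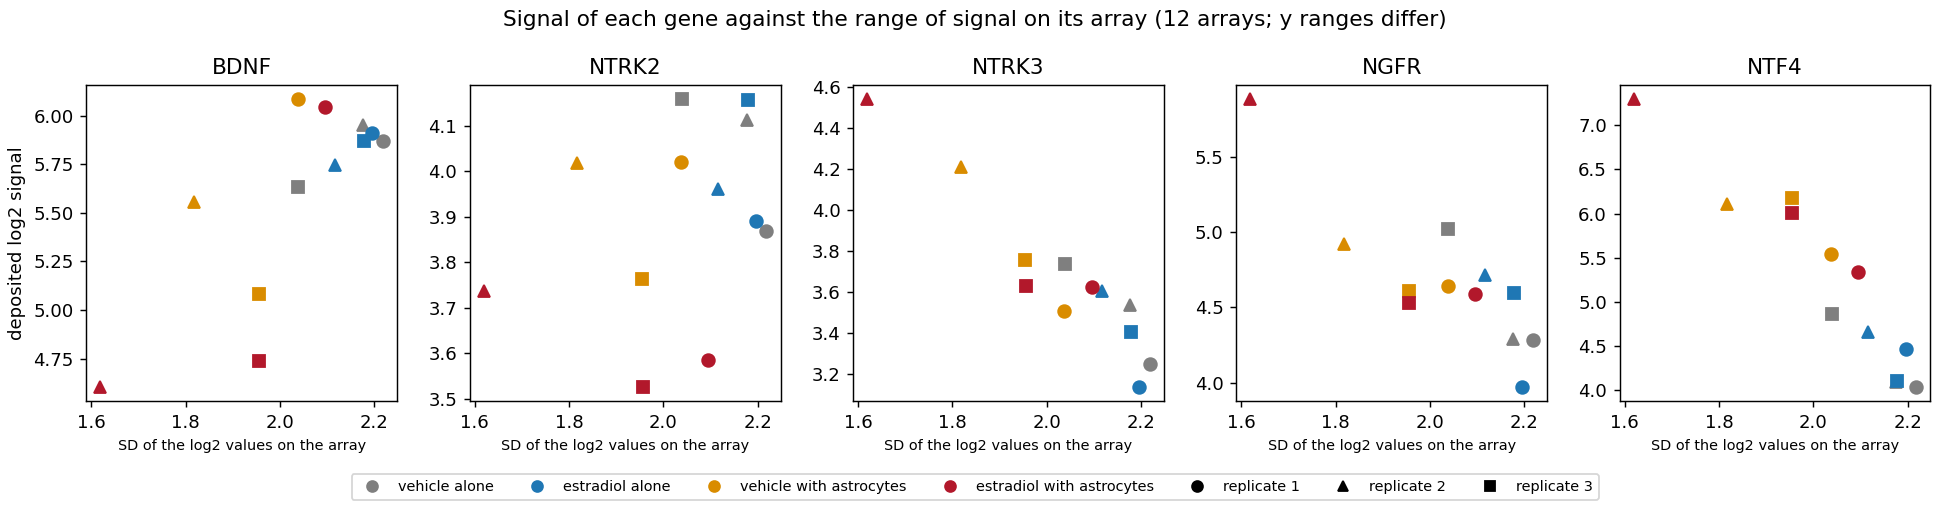
Deposited log2 signal of each gene (y axis, its own range in each panel) against the SD of all log2 values on the same array (x axis), for the 12 arrays coloured by group, with symbols for replicate numbers. The array with the lowest SD, 1.62, has the highest NTRK3 (4.54), NGFR (5.88) and NTF4 (7.30) and the lowest BDNF (4.61).

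The genes most like each of the 4 measured genes were taken by Pearson's r over the 12 arrays, as a description of arrays that differ in group and in range of signal. NTRK3 was most like SLCO2A1 (r = 0.991), NLRP12 (0.989) and ELMO3 (0.985). NGFR was most like TNFRSF13B (r = 0.977), TTC22 (0.977) and CHRNB4 (0.974). BDNF was most like RCAN3 (r = 0.975), SP3 (0.956) and TMX4 (0.956), and NTRK2 most like COL13A1 (r = 0.918), ZIC2 (0.885) and TEAD3 (0.879). The 3 genes named for each share none with another. Over the deviations from the group means, the leading gene was PTPN7 for NTRK2 (r = 0.926), ANO1 for NTRK3 (0.993), FGFBP1 for NGFR (0.984) and BCAT1 for BDNF (0.979). NTRK3 and NGFR varied together over the arrays (r = 0.905, and 0.898 over the deviations). Both ran against the array SD (r = -0.946 for NTRK3 and -0.856 for NGFR), whereas r with the array SD was 0.315 for NTRK2 and 0.772 for BDNF. NTF4 also varied with NTRK3 (r = 0.830) and NGFR (r = 0.724). The part of the array SD in these correlations was not tested.

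Neurotrophins are made as precursors, and cleavage by convertases, plasmin or matrix metalloproteinases sets whether p75 and sortilin or the Trk receptors are bound. Of 14 listed processing enzymes 12 were measured, and in the mean of both astrocyte comparisons 2 rose and 3 fell, against 24.5% of all genes higher and 23% lower. Plasminogen (PLG) rose by 0.88 (adjusted p = 0.00558, limma) and the protease MMP9 by 0.65 (adjusted p = 0.0298). Carboxypeptidase E (CPE), which trims peptide precursors and sorts BDNF, fell by 0.83 (adjusted p = 0.00811), the convertase PCSK7 by 0.55 (adjusted p = 0.0293) and the protease MMP3 by 0.69 (adjusted p = 0.0297). With the array SD as a covariate PLG rose by 0.45 (adjusted p = 0.0465), while CPE, at -0.57, did not pass (adjusted p = 0.0854). MMP9 was named after its value was seen.

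All 4 genes listed with the sortilin family were measured. SORCS2, which can act as a co-receptor of p75, was the 1 that rose in the mean of both astrocyte comparisons (0.64, adjusted p = 0.0283, limma). In that mean 24.5% of all genes rose, and 1 of 4 is near that share. The differences of SORCS1 (0.45, adjusted p = 0.0581), SORL1 (0.33, adjusted p = 0.134) and SORCS3 (0.26, adjusted p = 0.209) did not pass. The SORCS2 call was lost with the array SD as a covariate (0.15, adjusted p = 0.638) and without replicate 2 of both astrocyte groups (0.45, adjusted p = 0.0717).

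Activated Trk receptors recruit adaptors that lead to Ras, PI3 kinase and phospholipase C gamma. Of 46 listed genes 36 were measured, and in the mean of both astrocyte comparisons 18 fell and 5 rose, with a median difference of -0.59 against 0.07 over all genes. SOS1, a Ras exchange factor, averaged 7.25 in vehicle alone, 7.17 in estradiol alone, 4.99 in vehicle with astrocytes and 4.92 in estradiol with astrocytes, and fell by 2.25 (adjusted p = 0.00268, limma). Its relative SOS2 fell by 1.77 (adjusted p = 0.00384), the adaptor NCK2 by 1.17 (adjusted p = 0.00547) and KIDINS220, a scaffold that Trk receptors phosphorylate, by 1.78 (adjusted p = 0.00573). Under estradiol 2 rose and 10 fell, against 5.03% of all genes higher and 8.15% lower, and without replicate 2 of estradiol with astrocytes 0 rose and 1 fell, with 2.32% of all genes called. With the array SD as a covariate the mean of both gave 6 higher and 2 lower, with 14.4% of all genes called, and SOS1 (-1.87) and SOS2 (-1.02) were the 2 that fell.

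**Figure D4:**
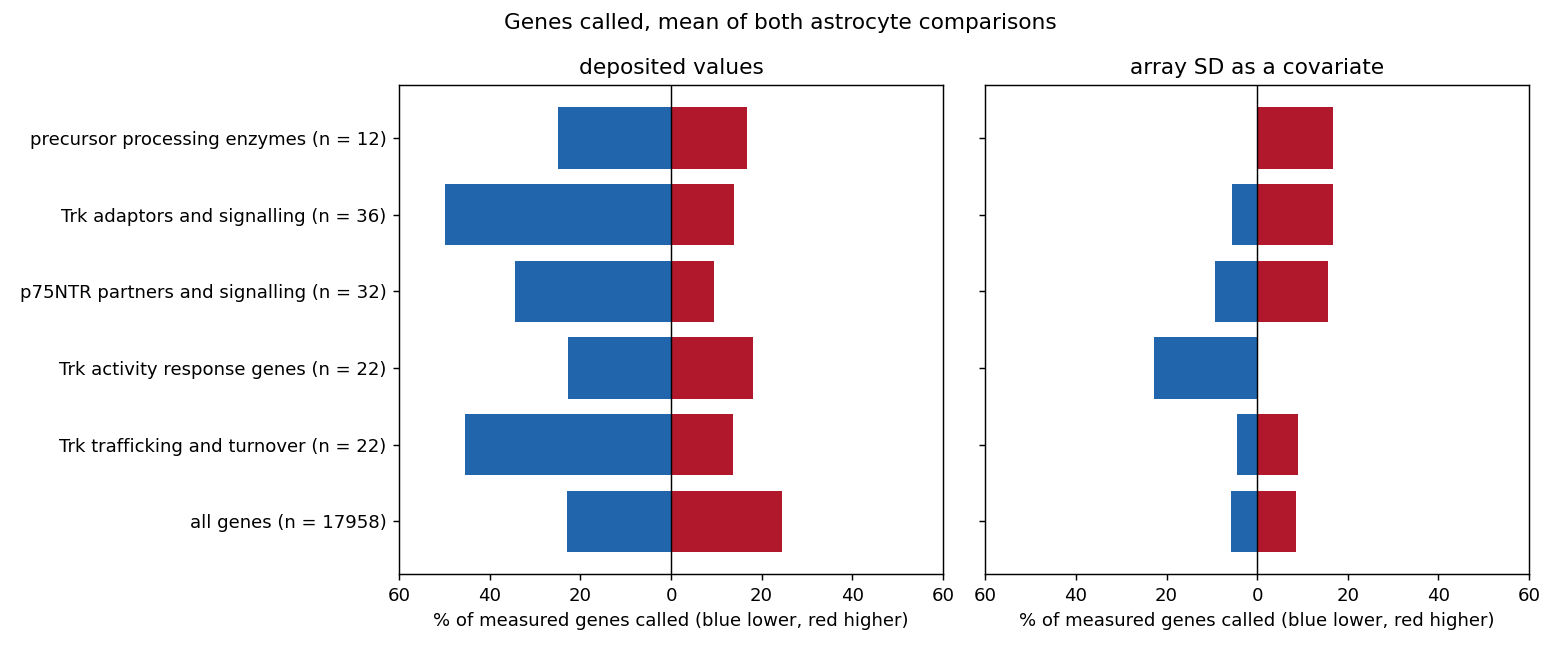
Percent of the measured genes of 5 pathway lists and of all genes (y axis) that were called lower (blue, left) or higher (red, right) in the mean of both astrocyte comparisons (x axis), from the deposited values and with the array SD as a covariate. In the deposited values 50% of the Trk adaptor genes were lower, against 23% of all genes, and with the covariate 5.56% were lower.

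The partners of p75 include the Nogo receptor complex, the secretases that cleave it and the kinases and nuclear proteins it signals to. Of 35 listed genes 32 were measured, of which 11 fell and 3 rose, with a median of -0.31, against 23% of all genes lower and 24.5% higher. After quantile normalization 6 fell and 8 rose, against 16.1% and 16.3% of all genes. PRDM4, a nuclear protein that binds p75, fell by 1.42 (adjusted p = 0.00370, limma), the kinase MAP3K5 by 1.17 (adjusted p = 0.00643) and ZNF274 by 0.76 (adjusted p = 0.00651). LINGO1, the co-receptor of p75 in the Nogo receptor complex, rose by 0.80 (adjusted p = 0.00698). With the array SD as a covariate PRDM4, MAP3K5 and ZNF274 made up the 3 calls lower (-0.79, -1.11 and -0.70) beside 5 higher. In that fit 5.82% of all genes were lower and 8.57% higher, and LINGO1 did not pass (0.38, adjusted p = 0.0809).

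Of 24 listed genes that Trk activity can induce 22 were measured, of which 5 fell (22.7%) and 4 rose (18.2%), with a median of -0.07. These shares are near those of all genes, 23% and 24.5%. FOS averaged 6.52 ± 0.14 (SD, n = 3) in vehicle alone, 6.52 ± 0.17 in estradiol alone, 5.52 ± 0.09 in vehicle with astrocytes and 5.42 ± 0.10 in estradiol with astrocytes. FOS fell by 1.05 in the mean of both (adjusted p = 0.00208, limma) and by 1.00 with the array SD as a covariate (adjusted p = 0.00262), and its arrays with and without astrocytes did not overlap. Of all genes, 18.4% under vehicle and 23.9% under estradiol had their arrays with astrocytes below those without.

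JUNB, which pairs with FOS in AP-1, fell by 0.70 (adjusted p = 0.00531, limma), but after quantile normalization its difference was -0.15 (adjusted p = 0.419). TRIB1, a pseudokinase, fell by 0.68 (adjusted p = 0.00762) and HOMER1, a synaptic scaffold, by 1.19 (adjusted p = 0.0102). The 4 that rose were the secreted neuropeptide precursors VGF (0.88), PENK (0.94) and SCG2 (0.45) and the nuclear receptor NR4A1 (0.58), named after their values were seen, with adjusted p of 0.0173, 0.0136, 0.0306 and 0.0274 (limma). With the array SD as a covariate 5 of the list fell and 0 rose, against 5.82% and 8.57% of all genes.

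Genes that move or switch off Trk receptors were the last list. Of 24 listed genes 22 were measured, of which 10 fell and 3 rose, with a median of -0.55, against 23% of all genes lower and 24.5% higher. CBL, a ubiquitin ligase of receptor kinases, averaged 7.52 in vehicle alone, 7.56 in estradiol alone, 5.97 in vehicle with astrocytes and 5.05 in estradiol with astrocytes. CBL fell by 2.03 (adjusted p = 0.00277, limma), and by 1.28 with the array SD as a covariate (adjusted p = 0.00791). The deubiquitinase USP8 fell by 1.17 (adjusted p = 0.00646) and SLITRK2, which binds TrkB, by 0.74 (adjusted p = 0.00692), and both were lost with that covariate (adjusted p = 0.0886 and 0.0732). With it, 1 gene of the list fell and 2 rose, against 5.82% and 8.57% of all genes. LINGO1 is on this list, on the list of p75 partners and on the list of Trk adaptor and signalling genes, and its rise was counted in each.

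In the pathway lists no gene passed in either estradiol comparison or in astrocytes against none under vehicle (limma). ESR1, the estrogen receptor that MDA-MB-231 cells are known to lack, averaged 3.61 ± 0.29 (SD, n = 3) in vehicle alone, 3.45 ± 0.17 in estradiol alone, 4.21 ± 0.62 in vehicle with astrocytes and 4.45 ± 0.65 in estradiol with astrocytes. Its rise of 0.80 in the mean of both astrocyte comparisons (adjusted p = 0.0256, limma) became 0.06 with the array SD as a covariate (adjusted p = 0.835). EGFR, a receptor kinase that uses many of the same adaptors, averaged 9.06 in vehicle alone, 9.12 in estradiol alone, 7.96 in vehicle with astrocytes and 7.31 in estradiol with astrocytes. EGFR fell by 1.45 in the mean of both (adjusted p = 0.00714, limma), and with that covariate its difference was -0.53 (adjusted p = 0.104).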

How the data were processed

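The authors deposited log2 signals of 33297 probe sets on 12 arrays. RMA and Partek are named, with neither version nor role, in the submitters' processing notes. A probe table named 1 gene for 19181 probe sets and several for 2055, and did not list 12061. For the 895 genes with several probe sets the one of highest mean was used, which left 17958 genes, with no filter on low values. Arrays have no read depth, so their number limits the precision.

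The tests were made in R 4.3.3 with limma 3.58.1 (a linear model with a mean for each of the 4 groups, fitted to the 12 arrays with moderated variances), two-sided, with Benjamini-Hochberg adjustment over all genes and a threshold of 0.05. The comparisons were estradiol against vehicle without and with astrocytes, astrocytes against none under vehicle and under estradiol, the interaction, and the mean of both astrocyte comparisons. Comparisons share groups. For 3 arrays against 3, the smallest exact permutation p is 0.1. The fit was tested on simulated data with independent normal errors and, for each gene, the same spread in every group. That simulation did not copy the differences in signal range between these arrays.

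The genes described and the lists were chosen with earlier results of these data known. The genes named are those described, NTF4, EGFR and ESR1, up to 4 genes per list with the smallest p in the mean of both astrocyte comparisons, and the 3 genes most like each one described. Others are said to have been named after their values were seen. Alternatives were quantile normalization, a block for the replicate number, other filters, probe set rules and thresholds, eBayes options, arrayWeights, the array SD as a covariate and arrays left out. Same-numbered arrays deviated together from their group means in each of the 3 pairs, with r over 0.1, only between the astrocyte groups (r = 0.789, 0.756 and 0.214). Without that cutoff, estradiol alone and vehicle with astrocytes also had positive r in each pair (0.512, 0.457 and 0.030). Differently numbered arrays could be closer: replicate 1 of vehicle with astrocytes had r = 0.396 with replicate 3 of estradiol with astrocytes. The numbers were taken to pair the astrocyte groups, from these values and not the labels, and this pairing was not tested. Promoter windows came from RefSeq (GRCh38.p14), and each motif was searched on both strands.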

Additional observations from a re-analysis of the deposited data

How the results depend on the processing

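With the replicate number as a block, 1 of the 4 genes passed in the mean of both astrocyte comparisons (NTRK3), and the block changed no other call of the 4 genes. Quantile normalization gave 1 call in that mean and 1 under estradiol (NTRK2 in both), no moderation of the variance gave 1 in the mean, and a threshold of 0.1 gave 1. arrayWeights, whose fit stopped before its tolerance was reached, gave 3 in the mean, 3 under estradiol and 1 under vehicle. Leaving out 1 array gave 0 to 1 calls in the mean and under estradiol. Among all 17958 genes, the mean of both gave 10278 calls with the block, 5802 after quantile normalization and 6953 with no moderation. It gave 11081 at a threshold of 0.1 and 14987 with arrayWeights, against 8528 without these changes. In astrocytes against none over all genes, 10 calls under vehicle became 2583 with the block and 2 (without vehicle alone replicate 1) to 6107 (without estradiol with astrocytes replicate 2) with 1 array left out. The 2366 under estradiol became 6691 with the block and 3 (without estradiol alone replicate 1) to 9222 (without estradiol with astrocytes replicate 1). Other settings gave 5 (genes above the median level) to 12445 (arrayWeights) calls under vehicle, among them 28 with no moderation, 1166 with the array SD and 1594 from the compared groups alone. Under estradiol they gave 0 (compared groups alone) to 14777 (arrayWeights), among them 125 with no moderation, 469 with the array SD and 529 after quantile normalization. arrayWeights also called 8 genes for estradiol without astrocytes, 1197 with them and 648 for the interaction. The 8528 calls in the mean became 4118 among genes above the median level, 14987 with arrayWeights and 2584 with the array SD as a covariate, and 4770 (without vehicle alone replicate 1) to 11339 (without estradiol with astrocytes replicate 1) with 1 array left out.

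Signs that turned belonged to differences that had not passed. For BDNF, estradiol against vehicle without astrocytes became -0.0050 after quantile normalization, -0.087 with arrayWeights, -0.022 with the array SD as a covariate and -0.070 to 0.088 with 1 array left out. Its astrocyte difference became 0.017 under vehicle after quantile normalization, and with the array SD 0.24 under vehicle and 0.080 in the mean. With 1 array left out it ran from -0.50 to 0.0024 under vehicle. For NTRK3 the array SD gave -0.17 under vehicle, -0.092 under estradiol and -0.13 in the mean, and for NGFR -0.43, -0.24 and -0.33. Estradiol against vehicle with astrocytes became -0.14 (NTRK3), -0.12 (NGFR) and -0.070 (NTF4) with arrayWeights, and -0.0038, -0.063 and -0.18 without replicate 2 of both astrocyte groups. It became -0.00095 for NTRK3 with the array SD. With 1 array left out it ran from -0.20 to 0.30, from -0.16 to 0.51 and from -0.26 to 0.71. Without astrocytes that comparison ran from -0.13 to 0.013 for NTRK2, from -0.25 to 0.14 for NGFR and from -0.070 to 0.34 for NTF4, and arrayWeights gave 0.20 for NGFR. The interaction became -0.012 (NTRK3), -0.32 (NGFR) and -0.23 (NTF4) with arrayWeights, and for NTF4 -0.054 with the array SD and -0.26 without replicate 2 of both astrocyte groups. With 1 array left out it ran from -0.073 to 0.42, from -0.057 to 0.62 and from -0.34 to 0.64. The cause was not tested. NTRK2, NTRK3 and NGFR were below the median level, so that filter left BDNF and NTF4.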
